A study of Mus musculus with 26 samples.

Results

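The genes described here encode proteins of the platelet and megakaryocyte surface, of platelet granules and of the signalling that activates platelets: Itga2b, Itgb3, Gp1ba, Gp5, Gp6, Gp9, Pf4, F2r, Vwf and Gng11. They were taken by symbol, with the 1 probe set of highest mean signal over all arrays for each. A probe set of its own named 8 of the 10 genes, among 19938 genes measured in all; Gp1ba and Gp6 are named only. Each of the 8 had 1 probe set, which named no other gene. These are 10391697 for Itga2b, 10381809 for Itgb3, 10438907 for Gp5, 10539818 for Gp9, 10523134 for Pf4, 10411229 for F2r, 10541910 for Vwf and 10536216 for Gng11.

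Megakaryocytes are the large bone marrow cells that shed platelets into the blood. Platelets stick to a damaged vessel through the glycoprotein Ib-IX-V complex, which binds von Willebrand factor, and through collagen receptors. They are then activated by thrombin and ADP, release granules filled with von Willebrand factor and platelet factor 4, and bind each other through the integrin made of the Itga2b and Itgb3 chains. Parts of this machinery are also made by blood stem cells and early progenitors; the Itga2b chain, known as CD41, and von Willebrand factor are used to mark subsets of them. Transcription factors of the GATA, ETS and RUNX families act together at megakaryocyte genes.

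The 26 arrays measured total RNA of cells sorted from bone marrow of mice of genotype Gata1-EGFP Tg/+, aged 8 to 15 weeks; all groups share this reporter, in which enhanced green fluorescent protein (GFP) reports on Gata1. There were 3 arrays each of HSC GFP-, CLP, PreGM GFP-, PreGM GFP+, GMP GFP+ and PreMegE, and 4 each of LMPP and GMP GFP-. Stem cells (HSC GFP-) were Lin- cKit+ Sca1+ CD150+ Flt3- and without GFP. Lymphoid-primed progenitors (LMPP) were Lin- cKit+ Sca1+ CD150- with high Flt3 and without GFP. Common lymphoid progenitors (CLP) were Lin- B220- with low Sca1 and cKit, Flt3+ and IL-7Ra+. Pre-granulocyte-macrophage (PreGM), granulocyte-macrophage (GMP) and pre-megakaryocyte-erythroid (PreMegE) progenitors were all Lin- cKit+ Sca1- and CD41-. Of these, GMP were FcgRII/III+, PreGM were FcgRII/III- CD150- CD105-, and PreMegE were FcgRII/III- CD150+ CD105-. PreGM and GMP were divided into cells with GFP (GFP+) and without (GFP-), whereas PreMegE and CLP were not gated on it. The CD41- gate removed cells with the Itga2b protein from 5 of the 8 groups, so Itga2b RNA there is that of cells without detected surface protein; the labels name no CD41 gate for HSC, LMPP and CLP. HSC with GFP, named in the study's design, were not analysed here.

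Values are log2 signals, so a difference of 1 is a doubling of signal. The median of all values was 6.61, and a signal under it was not shown to exceed background, so no fold is given where a group mean lay under it. Array medians lay between 6.42 and 6.70. Arrays correlated at r = 0.950 to 0.989 within groups and 0.923 to 0.983 between groups. Gata1 itself followed the sort, with means of 8.48 ± 0.41 (SD, n = 3) in PreGM GFP+, 8.08 ± 0.15 (n = 3) in GMP GFP+ and 8.47 ± 0.32 (n = 3) in PreMegE, against 6.31 to 6.73 in the other groups. A gene was called where its adjusted p (limma, Benjamini-Hochberg over all genes) was under 0.05. Nothing in the labels ties replicate arrays to different animals, and the spread behind each p-value may therefore be technical only. In sorted populations, fewer cells that contain an RNA and less of it per cell cannot be told apart. Their number, 3 or 4 a group, limits the precision.

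Promoter sequences of 7 of the 10 genes were at hand in RefSeq (GRCm38.p6); Itgb3, Vwf and Gng11 are named only. The 250 bases before the start are shown for the 4 matched genes whose signal differed most between the groups below, Gp5, F2r, Itga2b and Pf4. Capitals mark the GATA words, which are AGATAA or AGATAG and likewise TGATAA or TGATAG, and the ETS words, which are AGGAAG or else CCGGAA, searched on both strands, each printed 5′ to 3′ on the strand of the gene.
Gp5: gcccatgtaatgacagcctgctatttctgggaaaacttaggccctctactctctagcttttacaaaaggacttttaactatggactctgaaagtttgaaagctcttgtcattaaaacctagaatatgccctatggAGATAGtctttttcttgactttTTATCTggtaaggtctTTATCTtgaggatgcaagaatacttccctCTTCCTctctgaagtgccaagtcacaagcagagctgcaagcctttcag
F2r: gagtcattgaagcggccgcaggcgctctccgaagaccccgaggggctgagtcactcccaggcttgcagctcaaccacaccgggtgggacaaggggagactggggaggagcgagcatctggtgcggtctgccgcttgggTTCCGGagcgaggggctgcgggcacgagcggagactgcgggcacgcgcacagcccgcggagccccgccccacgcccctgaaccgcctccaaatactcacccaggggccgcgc
Itga2b: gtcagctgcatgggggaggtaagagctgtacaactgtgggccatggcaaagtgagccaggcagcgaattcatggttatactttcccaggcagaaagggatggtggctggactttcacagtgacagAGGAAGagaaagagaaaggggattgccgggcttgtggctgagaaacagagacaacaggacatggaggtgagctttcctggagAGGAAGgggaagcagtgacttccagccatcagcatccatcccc
Pf4: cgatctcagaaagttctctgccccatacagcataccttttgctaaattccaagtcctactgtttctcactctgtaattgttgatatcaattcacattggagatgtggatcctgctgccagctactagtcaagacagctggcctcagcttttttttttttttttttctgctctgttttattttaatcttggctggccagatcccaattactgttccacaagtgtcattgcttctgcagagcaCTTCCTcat
They lie at chr16:30310782-30311031 (Gp5, minus strand), chr13:95618467-95618716 (F2r, minus strand), chr11:102469884-102470133 (Itga2b, minus strand) and chr5:90772185-90772434 (Pf4, plus strand). The Gp5 window held 3 GATA words, at 115 to 110, 93 to 88 and 77 to 72 bases before the start, and 1 ETS word at 48 to 43. F2r had 0 GATA words and 1 ETS word, at 112 to 107. Itga2b had 0 GATA words and 2 ETS words, at 125 to 120 and 43 to 38, and Pf4 had 0 GATA words and 1 ETS word at 9 to 4. Among the genes whose windows are not shown, Gp1ba had 3 GATA words and 1 ETS word, Gp6 had 1 GATA word and Gp9 had 1 ETS word. The RUNX word TGTGGT, not in capitals, occurred 1 time in F2r and 1 time in Gp9. Of 32851 RefSeq promoter windows of this length, 26.5% held a GATA word, 38.2% an ETS word and 14% the RUNX word. A match is a description of these letters and shows no binding.

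The genes fell into different patterns over the 8 groups. Gp5 and F2r had their highest means in PreMegE and then PreGM GFP+, Itga2b in PreGM GFP+, GMP GFP+ and PreMegE, and Gng11, Itgb3 and Vwf in HSC GFP-, while Pf4 exceeded the median of all values in PreMegE and HSC GFP- and means of Gp9 spanned 0.52. A moderated F test over the groups in limma called 7 of the 8, all but Gp9 (adjusted p = 0.0953); it called 15.2% of all genes. Adjusted p was 4.54e-12 for F2r, the rank 21 gene of all, 1.64e-08 for Itga2b and 3.02e-07 for Gp5. It was 4.40e-06 for Gng11, 0.000122 for Pf4, 0.00797 for Vwf and 0.0146 for Itgb3. Over all 28 pairs of groups the 8 genes gave 84 calls, where 4.03% of all gene-by-pair tests were called; F2r had 18, Itga2b 17, Gp5 and Pf4 13 each, Gng11 10, Itgb3 6, Vwf 4 and Gp9 3.

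**Figure D1:**
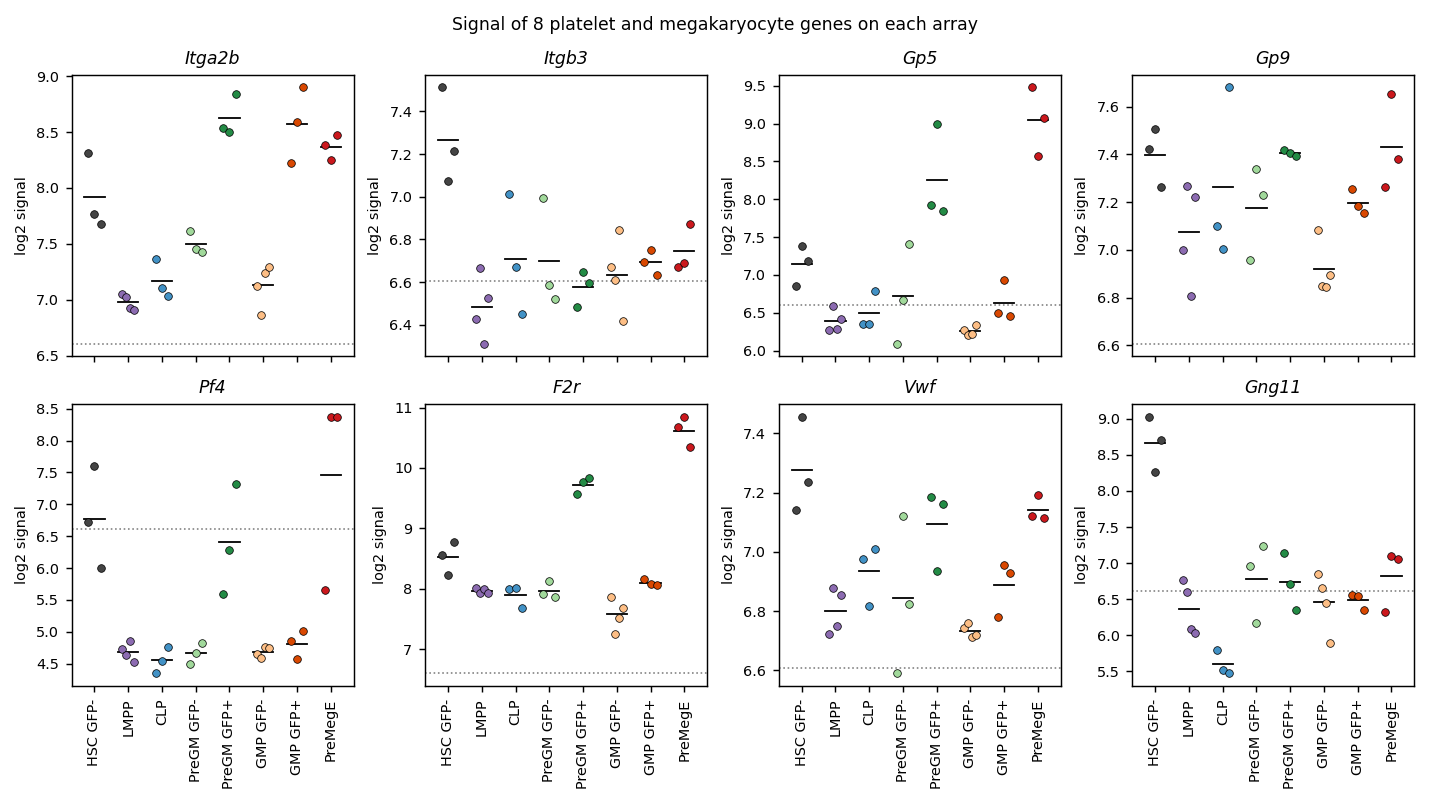
Log2 signal of the 8 measured genes in every array (points) with the mean of each sorted group (bars); the dotted line is the median of all values, 6.61. F2r and Gp5 sit highest in PreMegE and PreGM GFP+, Gng11 in HSC GFP-, and 6 of the 8 group means of Pf4 lie under the line.

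The integrin chain gene Itga2b was high wherever the reporter was on. Its log2 signal was 8.53, 8.50 and 8.84 in the PreGM GFP+ arrays and 7.62, 7.45 and 7.43 in PreGM GFP-. In GMP GFP+ it was 8.23, 8.59 and 8.90, and in GMP GFP- 7.12, 6.86, 7.24 and 7.29. Every reporter-positive array stood above every reporter-negative array of both stages, although all of these cells were sorted as CD41-. PreMegE arrays read 8.39, 8.25 and 8.47. HSC GFP- arrays read 8.32, 7.76 and 7.68, overlapping PreMegE and GMP GFP+ at the top, and the lymphoid groups lay lower, with LMPP at 7.05, 7.03, 6.93 and 6.91 and CLP at 7.36, 7.11 and 7.04. In the order of its means, from PreGM GFP+ (8.63 ± 0.19, n = 3) down to LMPP (6.98 ± 0.07, n = 4), no neighbouring groups differed beyond the threshold.

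Its partner chain gene Itgb3 did not follow it. Itgb3 was highest in HSC GFP-, at 7.51, 7.07 and 7.21, and all 3 arrays lay above every array of the other groups. The other means ran from 6.48 ± 0.15 (n = 4) in LMPP to 6.75 ± 0.11 (n = 3) in PreMegE. HSC GFP- was called higher than 6 of the 7 other groups, the exception being PreMegE (adjusted p = 0.0644, limma). PreGM GFP+, where the Itga2b mean was highest, had an Itgb3 signal of 6.48, 6.65 and 6.59, and its difference from PreGM GFP- was -0.12. Over the 8 group means the pair correlated at r = 0.183, given as a description.

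Of the glycoprotein Ib-IX-V complex, Gp5 and Gp9 were measured. Gp5 is the subunit cleaved by thrombin, and Gp9 is needed to bring the complex to the surface. Gp5 read 9.48, 8.58 and 9.07 in PreMegE, 7.93, 8.99 and 7.85 in PreGM GFP+ and 6.86, 7.39 and 7.19 in HSC GFP-. PreGM GFP- spread from 6.09 to 7.41, and GMP GFP+ read 6.49, 6.93 and 6.46. In LMPP, CLP and GMP GFP- the means lay at 6.39, 6.49 and 6.26, under the median of all values. PreMegE and PreGM GFP+ thus stood above all other arrays, and overlapped each other; in the order of means, the step from PreGM GFP+ to HSC GFP- was the only one called (1.11, adjusted p = 0.029, limma).

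Gp9 kept within a narrow band, its group means spanning 0.52. Means ran from 6.92 ± 0.11 (n = 4) in GMP GFP- to 7.43 ± 0.20 (n = 3) in PreMegE, with PreGM GFP+ at 7.41 ± 0.01 (n = 3) and HSC GFP- at 7.40 ± 0.12 (n = 3). GMP GFP- was called lower than these 3 groups, by 0.52, 0.49 and 0.48 (adjusted p = 0.027, 0.0476 and 0.0292, limma). No other pair was called. PreMegE and PreGM GFP+ thus had the highest means for both subunits. For Gp9 they exceeded HSC GFP- by only 0.04 and 0.01, neither called, and its means spanned 0.52 against 2.79 for Gp5.

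Pf4 encodes platelet factor 4, a chemokine of the alpha granule. Its signal was 5.66, 8.36 and 8.37 in PreMegE, 6.73, 7.60 and 6.0 in HSC GFP- and 5.60, 6.29 and 7.32 in PreGM GFP+. All other arrays lay between 4.35 and 5.01. The means of PreMegE (7.46) and HSC GFP- (6.78) were above the median of all values and that of PreGM GFP+ (6.40) under it. Arrays of these 3 groups spread most, with SDs of 1.57, 0.80 and 0.87, against 0.08 to 0.23 elsewhere. In PreMegE, array 1 read far below the other two; it also had the lowest Gata1 signal of the 3 (8.10, 8.67 and 8.63) and the widest residuals of the 3 over all genes (SD 0.285, against 0.206 and 0.216), and the part of either in the Pf4 value was not tested. HSC GFP- and PreMegE were each called higher than LMPP, CLP, PreGM GFP-, GMP GFP- and GMP GFP+, and PreGM GFP+ higher than LMPP (1.71, adjusted p = 0.0444), CLP (1.85, 0.031) and GMP GFP- (1.71, 0.0285, limma). These differences are of signal, from means under the median of all values.

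Vwf encodes von Willebrand factor, the adhesive protein stored in alpha granules and in endothelium. Its means spanned 0.54, from 6.73 ± 0.02 (n = 4) in GMP GFP- to 7.28 ± 0.16 (n = 3) in HSC GFP-. The HSC GFP- arrays read 7.14, 7.46 and 7.24, PreMegE 7.12, 7.19 and 7.12, and PreGM GFP+ 7.19, 6.93 and 7.16. HSC GFP- was called above LMPP, PreGM GFP- (0.43, adjusted p = 0.0321) and GMP GFP- (0.54, adjusted p = 0.00136), and PreMegE above GMP GFP- (0.41, adjusted p = 0.0199, limma). HSC GFP- and PreMegE overlapped in range.

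F2r encodes the thrombin receptor PAR1 and showed the clearest steps between groups. Its signal was 10.67, 10.85 and 10.34 in PreMegE, 9.57, 9.76 and 9.83 in PreGM GFP+ and 8.56, 8.23 and 8.78 in HSC GFP-. These groups did not overlap each other or any other group. GMP GFP+ read 8.17, 8.07 and 8.06, and PreGM GFP-, LMPP and CLP had means of 7.97, 7.97 and 7.90. GMP GFP- was lowest, at 7.87, 7.26, 7.53 and 7.68. Both upper steps of the order were called, PreMegE over PreGM GFP+ (0.90, adjusted p = 0.0234) and PreGM GFP+ over HSC GFP- (1.20, adjusted p = 2.55e-05, limma), and no step below them was.

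Gng11 encodes a gamma subunit of heterotrimeric G proteins. It was highest in HSC GFP-, at 9.03, 8.27 and 8.71, above every array of the other groups. The next mean was that of PreMegE, 6.82 ± 0.44 (n = 3), a step of 1.85 (adjusted p = 0.000302, limma), and CLP was lowest, at 5.80, 5.51 and 5.47. LMPP read 6.76, 6.60, 6.08 and 6.03. Means of the 4 PreGM and GMP groups lay between 6.46 and 6.79, and the arrays of reporter-positive and reporter-negative cells overlapped at both stages.

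**Figure D2:**
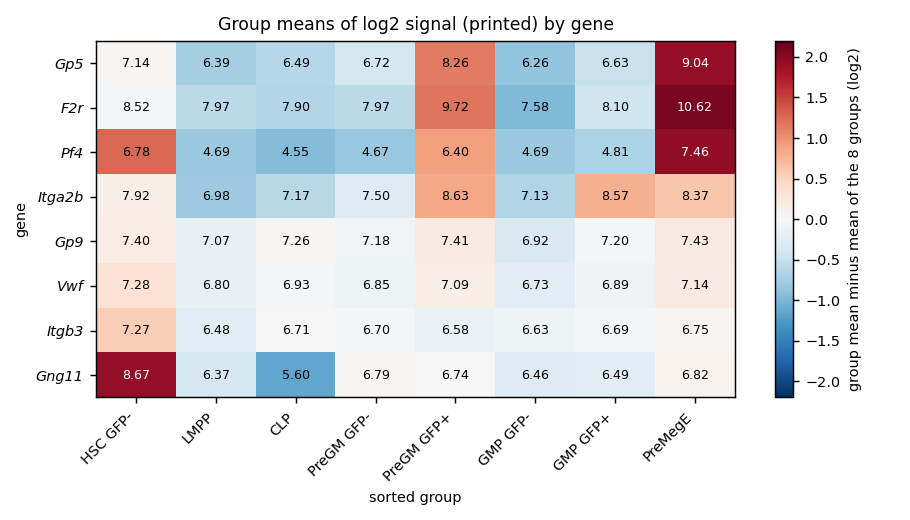
Mean log2 signal of each of the 8 genes (rows) in each sorted group (columns), printed in the cells; the colour is the deviation from the mean of the 8 groups for that gene, in log2 units. Gng11 and Itgb3 peak in HSC GFP- (8.67 and 7.27), F2r and Gp5 in PreMegE (10.62 and 9.04), and Itga2b in PreGM GFP+ (8.63).

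At the PreGM stage, cells with the reporter had more F2r, Gp5 and Itga2b RNA than cells without it. F2r was 3.36-fold higher (log2 difference 1.75, SE 0.16, 95% interval 1.42 to 2.07, n = 3 and 3, adjusted p = 1.68e-07). Gp5 was 2.89-fold higher (1.53, interval 0.93 to 2.13, adjusted p = 0.00283) and Itga2b 2.18-fold (1.13, interval 0.78 to 1.47, adjusted p = 0.00021, limma). Thus 3 of the 8 genes were called higher and 0 lower, where 0.908% of all genes were called higher and 1.14% lower. Their median difference was 0.69, against 0.04 over all genes. Pf4 differed by 1.74 (interval 0.70 to 2.77) with no overlap of arrays, and was not called (adjusted p = 0.0836); without PreGM GFP+ array 1 it was 2.14 and called (adjusted p = 0.0473). The remaining differences ran from -0.12 for Itgb3 to 0.25 for Vwf. The call for Gp5 was lost when the fit used only these 6 arrays (adjusted p = 0.147).

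At the GMP stage the reporter-positive cells had more Itga2b, and a little more F2r. Itga2b was 2.72-fold higher (log2 difference 1.44, SE 0.16, interval 1.12 to 1.77, n = 3 and 4, adjusted p = 1.48e-06). F2r was 1.43-fold higher (0.52, interval 0.22 to 0.82, adjusted p = 0.031, limma). That made 2 called higher and 0 lower, against 3.22% and 4.05% of all genes, with a median of 0.22 over the 8 genes and 0.08 over all. The F2r call was lost without GMP GFP- array 2 or 3 or without any 1 of the 3 GMP GFP+ arrays (0.41 without GMP GFP- array 2; adjusted p up to 0.117). Gp5 differed by 0.37 (interval -0.19 to 0.93, adjusted p = 0.418) and Pf4 by 0.12, from means under the median of all values.

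The reporter effect on F2r was larger in PreGM than in GMP. The difference of the effects was 1.23 log2 units (SE 0.21, interval 0.79 to 1.67, adjusted p = 0.00301, limma), and it was the 1 call among the 8 genes, where 0.186% of all genes were called higher and 0.517% lower. For Gp5 it was 1.16 (interval 0.34 to 1.98, adjusted p = 0.35) and for Pf4 1.62 (interval 0.20 to 3.03, adjusted p = 0.561). Itga2b went the other way in size, at -0.32 (interval -0.79 to 0.16, adjusted p = 0.826). Set directly against PreGM GFP+, GMP GFP+ cells had less Gp5 (-1.63, 3.09-fold, adjusted p = 0.00273) and less F2r (-1.62, 3.07-fold, adjusted p = 6.72e-07, limma). Their Itga2b signal differed by -0.05 (interval -0.40 to 0.29, adjusted p = 0.985). Of the 8 genes 0 were called higher and 2 lower between these reporter-positive groups, against 0.792% and 0.226% of all genes, and the median was -0.23 against 0.01. Pf4 differed by -1.59 and was not called (adjusted p = 0.228). The Gp5 call was lost in a fit of these 6 arrays alone (adjusted p = 0.0894).

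**Figure D3:**
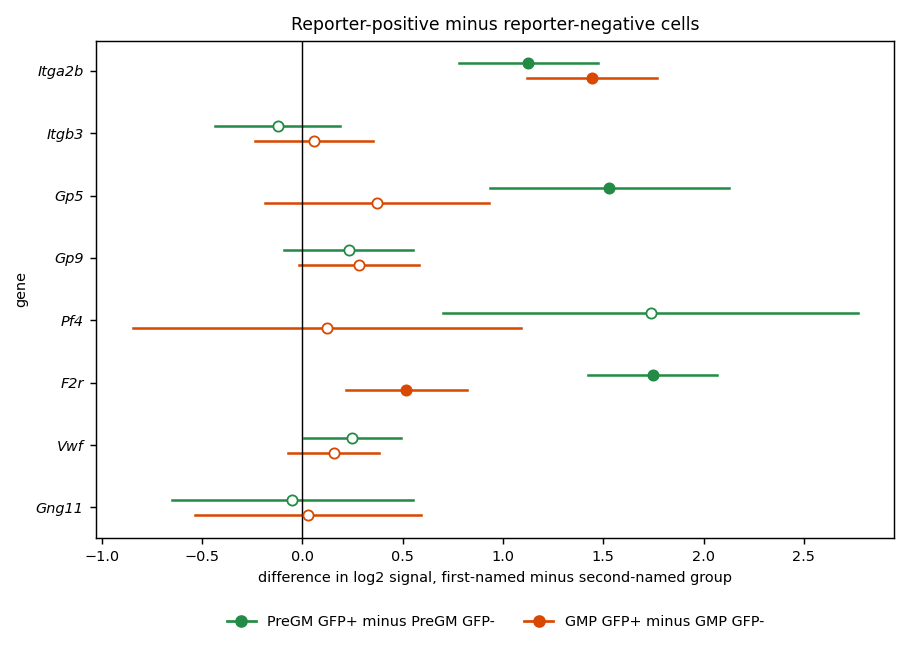
Log2 difference of reporter-positive minus reporter-negative cells for each of the 8 genes (rows), in PreGM (green) and GMP (orange), with 95% intervals; filled points were called and open points were not. F2r lies at 1.75 in PreGM and 0.52 in GMP, whereas Itga2b lies at 1.13 and 1.44.

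Genes of other lineages moved with the reporter too. The mean of 9 measured erythroid genes ran from 8.49 to 8.83 in the PreGM GFP+ arrays and 6.64 to 7.08 in PreGM GFP-, and from 7.83 to 8.13 in GMP GFP+ and 6.55 to 6.82 in GMP GFP-. In each comparison 7 of the 9 were called higher and 0 lower. The mean of 8 mast cell and basophil genes ran from 10.17 to 10.53 in GMP GFP+, 7.77 to 8.25 in PreGM GFP+, 6.58 to 6.86 in GMP GFP- and 6.54 to 6.77 in PreGM GFP-. Of these, 7 were called higher in GMP GFP+ and 5 in PreGM GFP+, and 0 lower. Other lists fell. Of 7 granulocyte-macrophage genes 6 were called lower in PreGM GFP+ (median difference -1.95) and 4 lower in GMP GFP+ (-1.99), and 0 higher in either; their mean ran from 7.70 to 8.03 in PreGM GFP+ and 9.38 to 9.73 in PreGM GFP-, and from 8.89 to 9.38 in GMP GFP+ and 10.49 to 10.84 in GMP GFP-. Of 6 lymphoid progenitor genes 4 were called lower in PreGM GFP+ (median -2.03), with means of 5.76 to 6.04 against 7.93 to 8.37, and 0 either way in GMP (median 0.15). The stem cell list was mixed, with 1 of 5 genes called higher and 1 lower in PreGM GFP+ (median -0.27). In GMP 0 of its genes were called (median 0.07). The erythroid list was thus highest in PreGM GFP+ and PreMegE (8.40 to 8.68), as Gp5 and F2r were, and the mast cell list in GMP GFP+. The part of these cells in the platelet gene differences was not tested.

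PreMegE, the progenitors named for the megakaryocyte and erythroid lineages, were compared with PreGM GFP+. Of the 8 genes, F2r was called higher (1.86-fold, log2 difference 0.90, SE 0.16, interval 0.58 to 1.22, n = 3 and 3, adjusted p = 0.0234, limma) and 0 were lower. Over all genes only 0.015% were called higher and 0.0502% lower, 3 and 10 genes. The call was lost without any 1 of the 6 arrays but PreMegE array 3 (adjusted p up to 0.186), and with the 6 arrays fitted alone (adjusted p = 0.583). Gp5 differed by 0.79 (interval 0.19 to 1.39) and Pf4 by 1.06 (interval 0.03 to 2.10), both with an adjusted p of 0.99994 (limma). Leaving out 1 array took the Pf4 difference from 0.61 (without PreMegE array 3 or array 2) and 0.66 (without PreGM GFP+ array 1) to 1.97 (without PreMegE array 1, adjusted p = 0.05004), with no call. Beside these, 3 of 8 mast cell and basophil genes were called lower in PreMegE (median -1.65), with list means of 6.39 to 6.65 against 7.77 to 8.25. So was 1 of 7 granulocyte-macrophage genes, and 1 of 5 stem cell genes was higher. The stem cell list holds Slamf1, the gene of CD150, which sets these gates apart. Slamf1 read 7.43, 7.79 and 6.29 in PreMegE and 5.78, 5.98 and 5.78 in PreGM GFP+, so its difference is the sort. In PreGM GFP-, also sorted as CD150-, it read 4.81, 4.89 and 4.91. All PreGM values of Slamf1 lay under the median of all values. The part of these lists in the platelet gene differences was not tested. The median was 0.13 over the 8 genes and 0.01 over all.

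Against HSC GFP-, PreMegE had more F2r and Gp5 and less Gng11. F2r was 4.27-fold higher (2.10, interval 1.77 to 2.42, adjusted p = 8.67e-09) and Gp5 3.73-fold higher (1.90, interval 1.30 to 2.50, adjusted p = 0.000202). Gng11 was 3.59-fold lower (-1.85, interval -2.45 to -1.24, adjusted p = 0.000302, limma). In all 2 were called higher and 1 lower, against 0.988% and 2.19% of all genes; the medians were 0.24 and 0.03. Itgb3 lay 0.52 lower, not called. Itga2b differed by 0.45 (interval 0.10 to 0.80, adjusted p = 0.19) and was called without HSC GFP- array 1 (0.65, adjusted p = 0.0319). Pf4 differed by 0.69 (interval -0.35 to 1.72, adjusted p = 0.652), and by 1.59 without PreMegE array 1, where it was called (adjusted p = 0.0159).

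PreGM GFP+ differed from HSC GFP- in 5 of the 8 genes. F2r was 2.29-fold higher (1.20), Gp5 2.16-fold (1.11, adjusted p = 0.029) and Itga2b 1.63-fold (0.71, adjusted p = 0.016). Gng11 was 3.82-fold lower (-1.93, adjusted p = 0.000166) and Itgb3 lower by a log2 difference of -0.69 (adjusted p = 0.00818, limma). Those 3 higher and 2 lower calls compare with 1.5% and 2.13% of all genes, with medians of -0.09 and 0.01. Pf4 differed by -0.37 (adjusted p = 0.865). The Gp5 call was lost once PreGM GFP+ array 2 was left out (0.74, adjusted p = 0.233) and also without HSC GFP- array 1 or 3, the Itga2b call without PreGM GFP+ array 3 or HSC GFP- array 2 or 3 (adjusted p up to 0.0993), and the Itgb3 call without HSC GFP- array 1 (adjusted p = 0.0617). These comparisons share arrays with each other and are not independent.

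Stem cells had more of most of these RNAs than lymphoid-primed progenitors. Gng11 differed by 2.30 (interval 1.74 to 2.86, n = 3 and 4, adjusted p = 1.37e-05) and Pf4 by 2.09 (interval 1.12 to 3.05, adjusted p = 0.0145). Itga2b was 1.92-fold higher (0.94, adjusted p = 0.000926), F2r 1.47-fold (0.55, adjusted p = 0.0453) and Vwf 1.39-fold (0.48, adjusted p = 0.0172), and Itgb3 differed by 0.78 (adjusted p = 0.00215, limma). In all 6 of the 8 were called higher and 0 lower (4 or 5 of the 8 when any 1 array was left out), against 1.28% and 1.03% of all genes, with a median of 0.77 against 0.04. Gp5 (0.75, interval 0.19 to 1.31, adjusted p = 0.205) and Gp9 (0.32, interval 0.02 to 0.62, adjusted p = 0.37) also lay higher and were not called. The F2r call was lost without any 1 of the 7 arrays but HSC GFP- array 2 (adjusted p up to 0.238), the Vwf call without LMPP array 1 or 3 or HSC GFP- array 2 (up to 0.130), and the Pf4 call without HSC GFP- array 2 (1.67, adjusted p = 0.118).

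**Figure D4:**
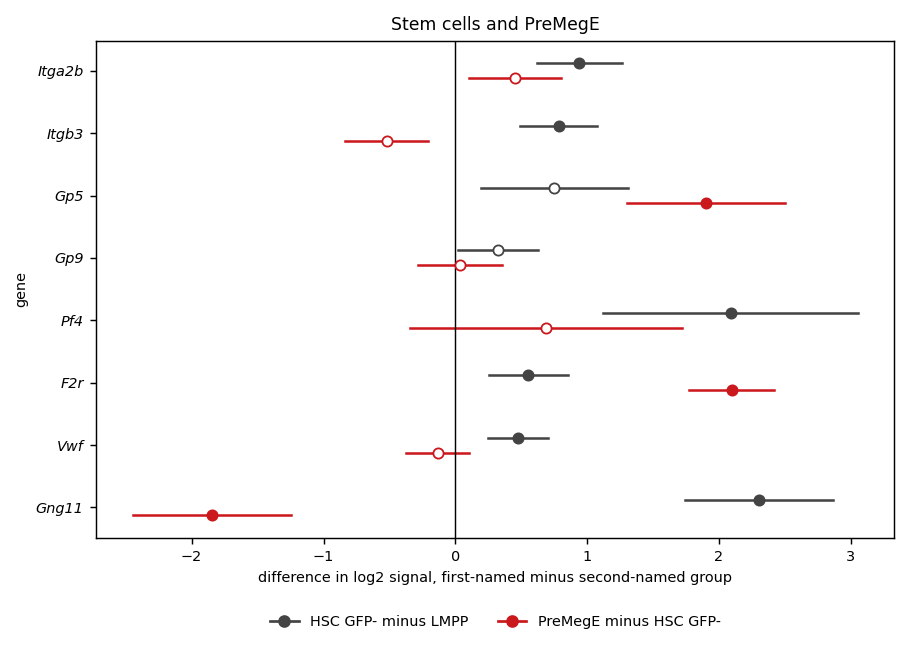
Log2 difference of each of the 8 genes (rows) for HSC GFP- minus LMPP (grey) and PreMegE minus HSC GFP- (red), with 95% intervals; filled points were called and open points were not. Gng11 lies at 2.30 and -1.85, and F2r at 0.55 and 2.10.

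Vwf and other platelet genes are also made by endothelium. The mean of 9 endothelial genes was 6.91 to 6.94 in the HSC GFP- arrays, 6.55 to 6.68 in LMPP and 6.48 to 6.60 in PreMegE. Of the 9, 2 were called higher in HSC GFP- than in LMPP, Tek by 1.81 (adjusted p = 7.66e-05) and Tie1 by 1.13 (adjusted p = 1.61e-06, limma). PreMegE had 2 of the 9 lower than HSC GFP- and 0 higher, Emcn by -2.13 (adjusted p = 0.000212) and Tie1 by -1.01 (adjusted p = 9.75e-06, limma). In HSC GFP- 5 of the 9 had a mean above the median of all values, Emcn at 7.60 among them. Among the rest, Cdh5 was 6.43 ± 0.02 (n = 3) there and highest in CLP, at 6.92 ± 0.45 (n = 3). Kdr was highest in HSC GFP- (5.94 ± 0.20, n = 3), and Plvap and Ptprb in PreMegE (6.50 and 6.26). The median difference of the endothelial list in HSC GFP- over LMPP was -0.03, against 0.04 over all genes. The part of endothelium in the platelet gene differences was not tested. Of 8 macrophage genes 0 were called between HSC GFP- and LMPP, where 1.28% of all genes were called higher and 1.03% lower. Such shares leave few calls to any 8 genes. The list means were 6.18 to 6.41 in HSC GFP- and 6.14 to 6.37 in LMPP. The stem cell list read 8.35 to 8.48 in HSC GFP- and 7.18 to 7.33 in LMPP, with 5 of 5 measured genes called higher. Lymphoid progenitor genes went the other way, with 4 of 6 called lower in HSC GFP- than in LMPP (median -2.15). Their list means were 6.16 to 6.28 against 8.39 to 8.91. Slamf1, the gene of CD150, is in the stem cell list and Flt3 in the lymphoid list, and these groups were gated on both. Flt3 had means of 8.18 in HSC GFP- and 11.44 in LMPP. The differences of Slamf1 and Flt3 are thus the sort. Of 7 granulocyte-macrophage genes 2 were lower in HSC GFP- (median -0.31), with list means of 7.18 to 7.73 against 7.96 to 8.22. Genes of mature megakaryocytes and platelets stayed low: the mean of 9 of them lay between 5.48 and 5.86 over all 26 arrays, and 2 of the 9, Treml1 and Tubb1, were above the median of all values in every group. Ppbp, the gene of another platelet chemokine, had means from 4.31 in LMPP to 4.78 in PreMegE. None of the 9 was called in any of the comparisons but F5, lower in GMP GFP+ than in GMP GFP-. In PreMegE and PreGM GFP+ their mean was 5.76 to 5.83 and 5.73 to 5.77, beside the higher F2r and Gp5.

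**Figure D5:**
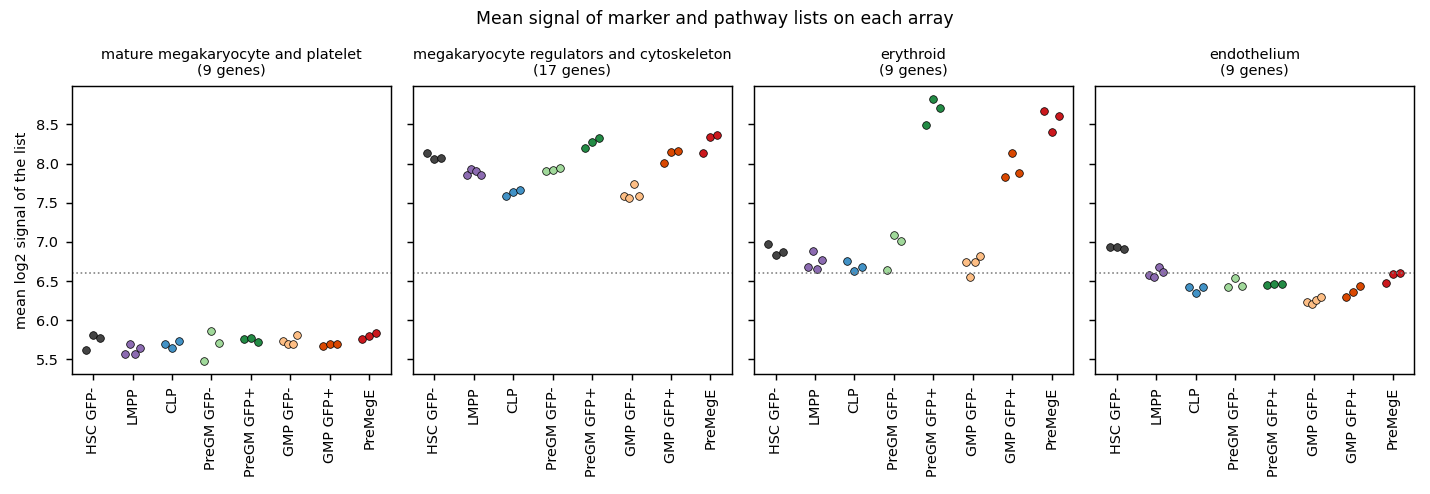
Mean log2 signal of marker lists in every array (points), by sorted group; the dotted line is the median of all values, 6.61. Mature megakaryocyte and platelet genes lie between 5.48 and 5.86 in all arrays, whereas erythroid genes lie between 8.40 and 8.83 in PreMegE and PreGM GFP+.

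PreGM GFP- and CLP were each compared with LMPP. For PreGM GFP- 0 of the 8 genes were called either way (limma), against 0.396% of all genes higher and 0.476% lower, with 1 at an unadjusted p under 0.05. Itga2b differed by 0.52 (adjusted p = 0.158, limma). For CLP 0 were called in either direction as well, against 0.828% and 0.747%, with 1 at an unadjusted p under 0.05, Gng11 at -0.77 (interval -1.33 to -0.21, adjusted p = 0.23, limma). The medians over the 8 genes were 0.16 and 0.12, and 0.01 and 0.04 over all genes.

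Other genes of the same pathways were taken from 4 lists. Their counts stand beside the shares of all genes called higher and lower. These were 0.908% and 1.14% for the reporter in PreGM and 3.22% and 4.05% in GMP. Over HSC GFP- they were 0.988% and 2.19% in PreMegE and 1.5% and 2.13% in PreGM GFP+. Over LMPP they were 1.28% and 1.03% in HSC GFP-, 0.396% and 0.476% in PreGM GFP- and 0.828% and 0.747% in CLP. Of 15 measured partners in platelet adhesion, 0 were called higher and 1 lower in PreGM GFP+ than in PreGM GFP-: Pecam1, an adhesion molecule of platelets, leukocytes and endothelium, at -1.23 (adjusted p = 0.011). In GMP the Pecam1 difference was 0.62 and not called (adjusted p = 0.147), and the reporter effects differed by -1.84 (adjusted p = 0.0125, limma). In GMP GFP+ over GMP GFP- 1 was called higher, Itga2, a chain of the collagen receptor, at 0.76 (adjusted p = 0.00508). HSC GFP- exceeded LMPP in 2, the tetraspanin gene Cd9 at 1.54 (adjusted p = 0.0104) and the junction gene Esam at 1.19 (adjusted p = 2.66e-05, limma). Esam was lower than in HSC GFP- in PreMegE (-0.94, adjusted p = 0.00064) and in PreGM GFP+ (-0.86, adjusted p = 0.00162). CLP differed from LMPP in 3 of these genes, with Fcer1g (1.92, adjusted p = 0.0438) and Pecam1 (0.99, adjusted p = 0.0445) higher and the integrin gene Itga6 lower (-1.40, adjusted p = 0.0197, limma). Esam was thus high in HSC GFP-, at 7.28 ± 0.23 (n = 3), and 6.09 to 6.42 in the other groups, as Itgb3 and Gng11 were high there. The reporter's median difference over this list was 0.08 in PreGM and 0.19 in GMP, against 0.04 and 0.08 over all genes.

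Of 18 measured genes of thrombin and G protein signalling, 1 was called higher and 0 lower in PreGM GFP+ than in PreGM GFP-, the ADP receptor gene P2ry1 at 0.85 (adjusted p = 0.000219). Its signal was 7.60, 7.79 and 8.00 in PreGM GFP+, 7.10, 6.83 and 6.93 in PreGM GFP- and 7.99, 7.68 and 7.90 in PreMegE. P2ry1 also exceeded HSC GFP- in PreMegE (1.02, adjusted p = 1.48e-05) and in PreGM GFP+ (0.95, adjusted p = 3.22e-05), and LMPP in PreGM GFP- (0.49, adjusted p = 0.0466, limma). Plcb2, a phospholipase gene, was lower in PreMegE than in HSC GFP- (-0.96, adjusted p = 0.00765). In GMP GFP+ 2 were higher, Rgs18, a regulator of G protein signalling, at 1.30 (adjusted p = 0.00707) and P2ry1 at 0.39 (adjusted p = 0.0466), and 1 lower, Rasgrp2, the activator of Rap1 in platelets, at -0.76 (adjusted p = 0.0248). HSC GFP- had less Rasgrp2 than LMPP (-1.11, adjusted p = 0.0028, limma), with 0 of the list higher. The other thrombin receptor gene called was F2rl3, lower in PreGM GFP+ than in HSC GFP- (-0.75, adjusted p = 0.00652), and the prostaglandin receptor gene Ptger3 was lower in CLP than in LMPP (-0.79, adjusted p = 0.00437, limma). With the reporter this list's median difference was -0.01 in PreGM and 0.06 in GMP, against 0.04 and 0.08 over all genes.

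Of 17 measured granule and secretion genes, 0 were called in either direction in PreGM GFP+ over PreGM GFP- (limma). In GMP GFP+ 1 was called higher, Rab27b, a small GTPase of granule release, at 0.65 (adjusted p = 0.00716, limma). F5, coagulation factor V, was the 1 called lower, at -0.69 (adjusted p = 0.011, limma). Means of both genes lay under the median of all values in every group, from 5.46 to 6.50 for Rab27b and 5.56 to 6.34 for F5. HSC GFP- exceeded LMPP in Rab38 at 1.14 (adjusted p = 0.00853) and Rab27b at 1.04 (adjusted p = 0.000141), and had less Slc35d3, a dense granule gene, at -1.61 (adjusted p = 0.000657, limma). Rab38 was lower in CLP than in LMPP by -2.74 (adjusted p = 1.07e-07). Slc35d3 was also lower in PreGM GFP- than in LMPP (-1.55, adjusted p = 0.00239). PreGM GFP+ had 3 of the list lower than HSC GFP- and 0 higher, Rab38 (-0.96), Rab27b (-0.58) and Nbeal2 (-0.54), and PreMegE had 1 lower, Nbeal2, needed for alpha granules, at -0.54 (adjusted p = 0.00563). The list's median difference was 0.02 in PreGM and 0.05 in GMP, against 0.04 and 0.08 over all genes.

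Of 17 measured megakaryocyte regulators and cytoskeletal genes, 5 were called higher and 0 lower in PreGM GFP+ than in PreGM GFP-. They were the transcription factor genes Gata2 (1.80, adjusted p = 1.74e-06), Gata1 (1.75, adjusted p = 2.36e-06) and Gfi1b (1.10), the Gata1 cofactor gene Zfpm1 (0.87) and Zfp385a (0.78). In GMP GFP+ 6 were higher, among them Gata2 (2.36, adjusted p = 3.01e-09), Gata1 (1.67), Meis1 (1.61) and Gfi1b (1.10), and 2 lower, Lyl1 (-0.65) and Srf (-0.60, limma). The list's median difference was 0.17 in PreGM and 0.27 in GMP, against 0.04 and 0.08 over all genes. PreMegE exceeded HSC GFP- in Gata1 (2.16, adjusted p = 8.6e-08) and Zfp385a (0.79) and had less Meis1 (-0.99). PreGM GFP+ exceeded HSC GFP- in Gata1 (2.17), Zfp385a (0.95) and Gata2 (0.94) and had less Meis1 (-1.10) and Fli1 (-0.63), and HSC GFP- exceeded LMPP in Gata2 (1.02, adjusted p = 0.0013). CLP had less Nfe2 (-1.98) and Meis1 (-1.88) than LMPP. Runx1 rose with the reporter in GMP (1.06, adjusted p = 0.000352), was higher in GMP GFP+ than in PreGM GFP+ (0.98, adjusted p = 0.00579), where Zfp385a was lower (-0.92, adjusted p = 0.0155), and its reporter effects in PreGM and GMP differed by -1.50 (adjusted p = 0.00242, limma). In PreGM the Runx1 difference with the reporter was negative and not called. Gata1 is the gene that the reporter follows, so its own difference is the sort.

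As a description over the 8 group means, Gp5 and F2r correlated at r = 0.995, Gp9 and Vwf at 0.915, and Itgb3 and Gng11 at 0.829; these means share the same arrays. Among all other named genes spanning at least 1 log2 unit, those most like F2r were Cyth3 (r = 0.987), Nckap1 (0.983) and Slc25a21 (0.977), which also were the 3 most like Gp5 (0.976, 0.973 and 0.970). Itga2b was most like Galnt6 (0.974), Gata2 (0.973) and Apoe (0.970). Pf4 was most like Nol4l (0.977), Plxnc1 (0.967) and Clca3a1 (0.964), and Gng11 like the stem cell and endothelial receptor gene Tie1 (0.965), then Slc6a15 and Csgalnact1 (0.954 each).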

How the data were processed

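The 26 arrays (Affymetrix Mouse Gene 1.1 ST) measured RNA of 8 sorted populations. Each deposited value is a log2 signal of a probe set on an array, made by the authors with RMA in oligo, per the submitters' processing notes, which give no version and no base of the logarithm; base 2 was taken from RMA's use and from the range of the values, 2.00 to 14.3. RMA makes arrays alike in distribution and can shrink small differences of dim genes. Probe sets were named from the annotation of the 1.0 ST version of the array. Of 35556, 21789 named 1 gene, 1621 several and 12146 none; the last groups were left out. Of the first, 21698 matched an Entrez record and 0 symbols changed. For 999 genes with several probe sets the highest mean over all arrays was used.

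A model with 1 coefficient for each group was fitted to all arrays in limma 3.58.1 under R 4.3.3. The p-values of its moderated tests were adjusted (Benjamini-Hochberg) over the 19938 genes. It was also run on simulated arrays with independent normal noise, which cannot tell whether the real replicates share a sort or an animal. A difference is the first-named group less the second, with SE and 95% intervals. No p was adjusted over the members alone. The members and lists were chosen with earlier results of these data known. Named are the members in every comparison, the 3 genes most like each member that spans at least 1 log2 unit (model, clone, small RNA, olfactory, vomeronasal and antigen receptor symbols passed over), up to 4 called genes of each of the 4 pathway lists in each comparison and sort genes; Zfp385a in PreGM, Runx1, Lyl1 and Srf in GMP, Fli1 in PreGM GFP+ over HSC GFP- and marker genes of other cells (Tek, Tie1, Emcn, Cdh5, Treml1, Tubb1 and Ppbp) were named after their values were seen. Kdr, Plvap and Ptprb were also named after their values were seen. Whether shared replicate numbers pair the samples could not be told. Residuals of same-numbered arrays correlated at r = -0.203 to 0.325, and in none of 9 comparisons were all pairs over 0.1. PreGM GFP- and LMPP came nearest, at 0.0996 to 0.325. With 3 pairs per comparison this check cannot exclude shared sorts. No pairing was fitted, and a replicate block is among the alternatives.

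Alternatives were median-centred arrays, quantile normalisation, a filter on low signal, the mean of a gene's probe sets, array weights, a trended robust prior, the replicate block, a fit of only the arrays compared, and leaving out each array in turn.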

Additional observations from a re-analysis of the deposited data

Results flagged for a closer look

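The F2r effect of the reporter differed between PreGM and GMP cells by a test of the difference itself: the effects were 1.75 and 0.52 log2 units and their difference was 1.23 (SE 0.21, adjusted p = 0.00301, limma). It was called under all 21 alternatives, leaving out each of the 13 arrays in turn among them. By the same test, the reporter effects on Pecam1 differed by -1.84 (-1.23 in PreGM, 0.62 in GMP, adjusted p = 0.0125, limma). Those on Runx1 differed by -1.50 (adjusted p = 0.00242, limma), being 1.06 in GMP, and negative and not called in PreGM.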

How the results depend on the processing

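Of 23 called differences of the 8 genes, 13 were called under every alternative and 10 were lost under at least 1, with 0 changes of sign; of 18 uncalled differences of at least 0.3, 4 were called under at least 1. The number of platelet genes called in GMP GFP+ over GMP GFP- fell from 2 to 1 with arrays centred on their medians, a trended robust prior, the replicate block or only the arrays compared, and was 1 to 2 without each array. In PreMegE over PreGM GFP+ it fell from 1 to 0 with a trended robust prior, the replicate block or only the arrays compared, and was 0 to 1 without each array. With only the arrays compared it fell from 2 to 1 in GMP GFP+ over PreGM GFP+ and from 5 to 2 in PreGM GFP+ over HSC GFP-, the latter being 3 to 5 without each array. In HSC GFP- over LMPP, 6 as reported, it was 4 to 5 without each array, 5 with the replicate block, and 4 to 7 over the other settings. Fits of only the arrays compared, or without an array, have fewer samples; otherwise the cause was not tested.

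The difference of Gp5 between PreGM GFP- and LMPP ran from -0.012 (without PreGM GFP- array 3) to 0.65, and that of Pf4 between PreGM GFP+ and HSC GFP- from -0.83 to 0.041 without each array (0.03 without PreGM GFP+ array 1, 0.041 without HSC GFP- array 2). With the replicate block, F2r missed the threshold in GMP (adjusted p = 0.0504), in PreMegE over PreGM GFP+ (0.0530) and in HSC GFP- over LMPP (0.0770, limma), and the block ended no other call among the 8 genes. Array weights, whose estimation stopped before converging, gave a call to Gp5 in HSC GFP- over LMPP (0.85, adjusted p = 0.0274) and to Itga2b in PreMegE over HSC GFP- (0.55, adjusted p = 0.0382). No scaling moved the median of all genes by 0.1.

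Over all genes, calls ran from 213 to 466 (408 as reported) in PreGM GFP+ over GFP-, 880 to 2799 (1449) in GMP, 116 to 348 (203) in GMP GFP+ over PreGM GFP+ and 0 to 21 (13) in PreMegE over PreGM GFP+. They ran from 264 to 867 (634) in PreMegE and 389 to 1079 (723) in PreGM GFP+ over HSC GFP-, 228 to 842 (462) in HSC GFP- over LMPP, 46 to 175 (174) in PreGM GFP- and 165 to 581 (314) in CLP over LMPP, and 2571 to 4649 (3036) in the F test. In the pathway lists, the filter on low signal removed Rab27b and F5, so neither was tested under it. Of the pathway lists and 3 endothelial genes, 67 differences were called, and their alternatives were chosen after seeing the data. Of these, 32 were called under every alternative that kept the gene, and 0 changed sign. Among those that held were Gata1, Gata2 and Gfi1b with the reporter at both stages, Gata1 and Gata2 where named against HSC GFP- or LMPP, Itga2, Rgs18, Rab27b, F5, Meis1 and Runx1 in GMP, Esam and Rab27b in HSC GFP- over LMPP, P2ry1 in PreMegE and PreGM GFP+ over HSC GFP-, Rab38, Nfe2 and Meis1 in CLP, and Runx1 in GMP GFP+ over PreGM GFP+ and in its difference between stages. The others named from the pathway lists were lost under at least 1. P2ry1 with the reporter was lost under 1 of 14 in PreGM and 10 of 15 in GMP, and Pecam1 in its difference between stages under 3 of 21. P2ry1 in PreGM GFP- over LMPP was lost under 13 of 15 (adjusted p up to 0.410, limma). Signals near or under the median of all values, as for Pf4 in the groups without it, limit what a difference says of the RNA.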
